A study of Mus musculus with 3 samples.

Results

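The genes described here are 36 genes of the cell division cycle, out of 32285 genes in the count matrices. They were chosen by name from their known roles: 15 act in the S phase, when DNA is copied, and 21 in the G2 and M phases, when the cell prepares for mitosis and divides. All 36 were found in the matrices. RNA was counted in single cells of embryonic palatal shelves from wild-type C57BL/6J mice, with 1 library per stage (E13.5, E14.5, E15.5) and the tissue of 3 embryos pooled in each library. No treatment, mutation or transgene is part of these libraries. Dissociated cells were fixed in methanol and captured in droplets, where each RNA molecule receives a unique molecular identifier (UMI), so a count is a number of molecules.

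A stage is 1 library, so stages have no replicate, and their differences are given as values with counting intervals and no test. Classes of cells can be compared within libraries, and the 3 libraries serve as blocks in that test. Levels are given in CPM, the UMIs of a gene summed over the cells of a class, per 1000000 UMIs of those cells. After filtering, 3583, 1750 and 2584 cells were kept, in order of stage. The 3 libraries held 11472663, 5293977 and 8313677 UMIs, and 4, 4 and 2 of their barcodes also occurred in another of the libraries.

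Before S phase, the minichromosome maintenance (MCM) proteins are loaded onto replication origins, and in S phase they unwind the DNA while the sliding clamp Pcna holds the polymerases on the template. Cyclin B with the kinase Cdk1 then drives entry into mitosis, and the anaphase-promoting complex, with its activator Cdc20 and its ubiquitin-conjugating enzyme Ube2c, ends it by marking cyclins for destruction. RNA of the first group is usually made under E2F factors from late G1 onward, and RNA of the second group accumulates in G2 under complexes that bind the cell cycle genes homology region (CHR) together with the CCAAT-binding factor NF-Y. The palatal shelves grow, rise and fuse during these days, and their mesenchyme and epithelium both divide.

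In the S list, Mcm2, Mcm3, Mcm4, Mcm5, Mcm6 and Mcm7 form the replicative helicase, Cdc6 loads it, and Gins2 belongs to the complex that activates it. Rrm1 and Rrm2 are the subunits of ribonucleotide reductase and Tyms is thymidylate synthase, which supply nucleotides. Slbp binds the stem-loop of histone messages, and Uhrf1 carries DNA methylation through replication. Cdca7 takes part in chromatin remodelling with Hells. In the list of G2 and M genes, Top2a untangles DNA, Mki67 coats mitotic chromosomes, Ccna2, Ccnb1 and Ccnb2 are cyclins, and Cdk1 is their kinase. Plk1, Aurka, Aurkb and Bub1 are mitotic kinases, and Birc5 and Cdca8 act with Aurkb in the chromosomal passenger complex. Cenpe and Cenpf work at kinetochores, Tpx2, Kif11, Nusap1 and Hmmr on the spindle, Anln at the cleavage furrow, and Cdc20 and Ube2c in the degradation of cyclins.

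Sequences before the start of transcription are shown for 5 members, chosen because they hold the motifs described here for each list. Many other members lack these motifs. RefSeq's table of promoters (build GRCm38.p6) had 31 of the 36 members, and Mcm4, Gins2, Aurkb, Tpx2 and Ccna2 were not matched. The 250 bases before each start were searched on both strands for a CHR (TTTGAA or TTCGAA), for CCAAT, and for an E2F motif (TTTCCCGC, TTTCGCGC, TTTGCCGC or TTTGGCGC). The last 200 of these bases are printed 5′ to 3′ on the strand of the gene, with matches in capitals, and a capital run can be a match read on the other strand or hold overlapping matches. The windows are chr11:99024190-99024389 on the minus strand for Top2a, chr7:135716380-135716579 on the minus strand for Mki67, chr9:70421555-70421754 on the minus strand for Ccnb2, chr8:75109309-75109508 on the plus strand for Mcm5 and chr1:128359706-128359905 on the minus strand for Mcm6. In Top2a, Mki67 and Ccnb2 the capitals mark CHR and CCAAT matches, and in Mcm5 and Mcm6 they mark E2F and CCAAT matches.
Top2a: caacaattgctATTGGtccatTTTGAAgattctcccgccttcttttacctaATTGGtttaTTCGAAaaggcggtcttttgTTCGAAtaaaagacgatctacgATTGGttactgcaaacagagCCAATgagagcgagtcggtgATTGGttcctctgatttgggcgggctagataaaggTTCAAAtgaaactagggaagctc
Mki67: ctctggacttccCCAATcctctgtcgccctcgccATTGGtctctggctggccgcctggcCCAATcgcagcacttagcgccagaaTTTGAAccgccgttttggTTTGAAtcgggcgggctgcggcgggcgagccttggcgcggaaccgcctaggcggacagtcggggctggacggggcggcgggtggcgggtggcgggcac
Ccnb2: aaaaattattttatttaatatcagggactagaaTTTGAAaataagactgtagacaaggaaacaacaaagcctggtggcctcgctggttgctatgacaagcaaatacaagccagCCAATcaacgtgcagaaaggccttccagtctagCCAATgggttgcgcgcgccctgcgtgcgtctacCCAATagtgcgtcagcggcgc
Mcm5: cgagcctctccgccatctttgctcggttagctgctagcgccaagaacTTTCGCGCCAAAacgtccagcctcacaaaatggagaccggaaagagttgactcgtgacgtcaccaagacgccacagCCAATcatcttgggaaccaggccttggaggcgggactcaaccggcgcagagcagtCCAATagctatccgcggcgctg
Mcm6: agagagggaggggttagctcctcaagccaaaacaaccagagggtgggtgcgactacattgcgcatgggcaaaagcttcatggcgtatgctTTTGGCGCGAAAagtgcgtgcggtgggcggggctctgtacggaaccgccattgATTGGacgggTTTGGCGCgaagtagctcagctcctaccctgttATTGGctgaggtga

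A CHR was found before 7 of 18 genes of the G2 and M list, before 2 of 13 of the S list, and before 19.6% of the 27025 genes of the table. At least 1 CCAAT was found before 15 of 18 G2 and M genes and 10 of 13 S genes, against 37.5% of all genes. The share with 2 or more CCAAT matches was 12 of 18 and 7 of 13, against 11.5%. A CHR and a CCAAT in the same window occurred in 7 of 18 G2 and M genes, 2 of 13 S genes and 7.001% of all genes. An E2F motif was found before 6 of 13 S genes and 1 of 18 G2 and M genes, the latter being Cdk1, against 2.16% of all genes. Top2a held 4 CHR and 6 CCAAT matches in these 250 bases, and Mcm6 held 3 E2F matches. A gene with 2 start sites in the table (Mcm7 and Uhrf1) was counted if either window held the motif. These matches describe letters in a window and do not show binding.

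Cells were sorted into classes by 10 marker genes per class, none of them a cell cycle gene. A cell was gated into a class when it had UMIs of at least 3 of its markers and more than of any other class. Mesenchymal, chondrogenic and osteogenic cells counted as 1 lineage in this, and a cell of the lineage with at least 3 chondrogenic or osteogenic markers took that class even where it had more mesenchymal markers. Osteogenic-gated cells had a median of 3 osteogenic and 6 mesenchymal markers, and chondrogenic-gated cells 6 chondrogenic and 3 mesenchymal markers. In order of stage, from E13.5 to E15.5, this gave 340, 1059 and 1648 mesenchymal-gated cells, 70, 69 and 184 epithelial, 124, 100 and 50 chondrogenic, 4, 44 and 63 osteogenic, 7, 43 and 51 endothelial, 17, 56 and 86 myeloid, 7, 13 and 25 glial and 195, 4 and 5 neural progenitor cells. There were 1831, 119 and 181 neuronal-gated cells, and 972, 226 and 277 cells entered no class. Sums of fewer than 10 cells were not used, which left osteogenic, endothelial and glial cells without a sum at E13.5 and neural progenitors with E13.5 alone. A gate is a range of a score and not a type: 71.2% of osteogenic, 41.7% of neural progenitor, 39.6% of epithelial, 12.8% of mesenchymal and 11.1% of glial cells had exactly 3 markers. For mesenchymal cells this differed between stages, with 118 of 340 at E13.5, 127 of 1059 at E14.5 and 146 of 1648 at E15.5.

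Each of these 9 classes had UMIs of all 10 of its own markers. Muscle-gated cells, 10 at E13.5 and 11 at E14.5, entered the model below and are not described here, and erythroid-gated and pituitary-gated cells were too few for a sum. The libraries differ in makeup from what a palatal shelf holds: 51.1% of the E13.5 cells were neuronal-gated, against 6.8% at E14.5 and 7.0% at E15.5. Of the 70 epithelial-gated cells at E13.5, 50 lay in a cluster without a name, whose leading genes included the pituitary genes Pomc, Pou1f1 and Tshb and the otic gene Oc90, and 15 lay in epithelial clusters. Glial-gated cells had a median of 5 glial, 3 mesenchymal and 2 neural progenitor markers.

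Mesenchymal cells, the bulk of the shelf and the reference for the other classes, had UMIs of every member at every stage. The S list summed to 783 (726 to 843), 662 (632 to 694) and 553 (531 to 575) CPM from E13.5 to E15.5, and the G2 and M list to 1785 (1699 to 1875), 1449.9 (1405 to 1496) and 1260.1 (1228 to 1293) CPM, with exact Poisson 95% intervals. Top2a (ENSMUSG00000020914, chr11:98992943-99024189, GRCm38) stood at 508, 439.9 and 378 CPM at these stages, with E13.5 highest and E15.5 lowest. Mki67 (ENSMUSG00000031004, chr7:135689784-135716361) stood at 122, 111 and 116 CPM. The kinase Cdk1 (ENSMUSG00000019942, chr10:69335146-69352938) was at 54.6, 50.5 and 42.3 CPM, its partner Ccnb1 (ENSMUSG00000041431, chr13:100778650-100786570) at 28.95, 18.8 and 17.6, and the activator of the anaphase-promoting complex Cdc20 (ENSMUSG00000006398, chr4:118432901-118437352) at 5.57, 11.8 and 8.47. Of these, Cdc20 alone was not highest at E13.5.

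Among the S genes, the clamp Pcna (ENSMUSG00000027342, chr2:132249162-132253314) stood at 66.8, 74.1 and 60.4 CPM in mesenchymal cells. The helicase subunits Mcm2 (ENSMUSG00000002870, chr6:88883474-88898780) and Mcm5 (ENSMUSG00000005410, chr8:75109569-75128439) stood at 27.8, 18.1 and 13.2 and at 25.6, 21.4 and 15.4 CPM, with E13.5 highest for both. A few cells held much of this RNA. The 5% of mesenchymal cells with the most G2 and M UMIs carried 50.4%, 55.2% and 64.5% of the list's UMIs at the 3 stages, against 31.4%, 32.4% and 39.3% for the S list. UMIs of 1 dividing cell go together, so counting intervals are narrower than the spread between cells would be.

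**Figure D1:**
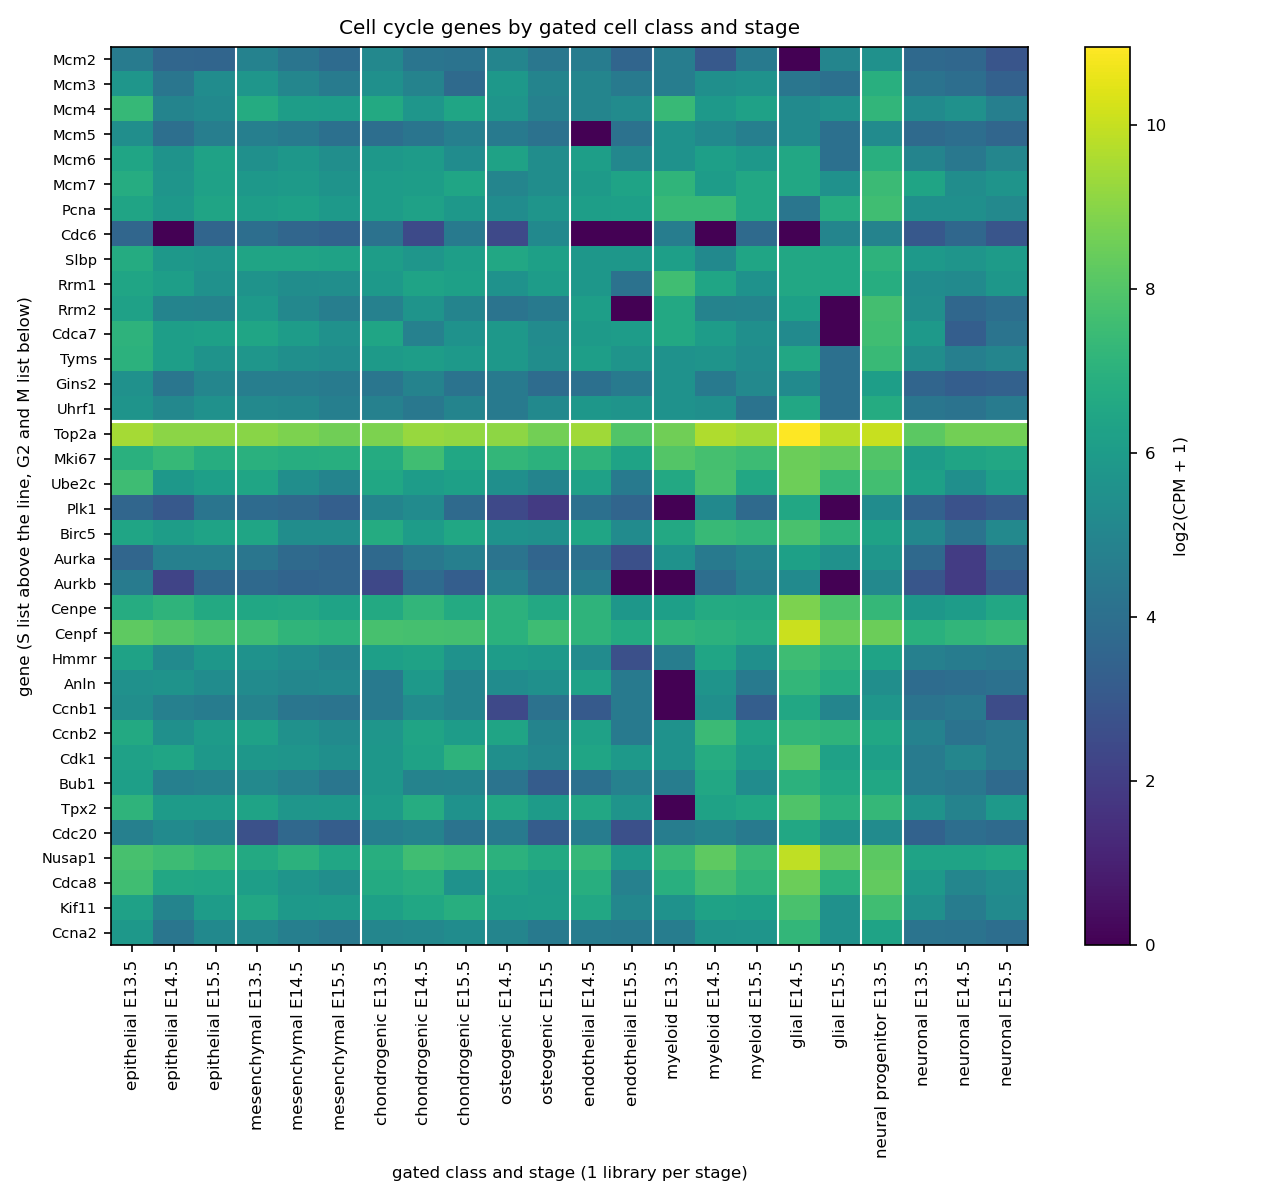
Levels of the 36 members as log2(CPM + 1), 1 row per gene and 1 column per gated class and stage, with the S list above the white line and the G2 and M list below it. The columns of glial cells at E14.5 and neural progenitors at E13.5 are the brightest for G2 and M genes, with Top2a at 1971 and 1057 CPM.

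Each class was compared with mesenchymal cells in a single model (edgeR's quasi-likelihood test on UMIs summed per class and library, with the library as a block and Benjamini-Hochberg adjustment over 10609 genes). Of the 36 members, 34 passed the filter on low counts: 14 S genes and 20 G2 and M genes. Cdc6 and Aurkb did not. Log2 ratios are of the class to mesenchymal cells, with standard errors. The 3 libraries differ in stage, so the spread includes differences between stages within a class.

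Neural progenitor cells, gated on genes such as Sox2, Pax6 and Nes, had higher summed levels of both lists than mesenchymal cells at E13.5, in the only library with a sum of this class. There the S list summed to 1855 (1743 to 1971) CPM and the G2 and M list to 3724 (3565 to 3888) CPM, above every mesenchymal sum. The test has no replicate of this class: its 1 sum is assumed to vary like those of the other classes, and the standard errors and p-values rest on that. Of the tested members, 6 of 14 S genes and 8 of 20 G2 and M genes were called higher and 0 lower, where 3.36% of all genes tested were called higher and 4.67% lower. All 34 ratios were above 0, with medians of 1.28 for S genes and 1.22 for G2 and M genes, beside -0.01 over all genes. Rrm2 stood at 203 CPM, against 60.1, 33.6 and 24.8 in mesenchymal cells of the 3 stages, and its log2 ratio was 1.77 ± 0.51 (adjusted p = 0.031). Tyms was 1.62 ± 0.36 (adjusted p = 0.0041) and Uhrf1 1.58 ± 0.44 (adjusted p = 0.022). Pcna stood at 192 CPM and differed by 1.44 ± 0.35 (adjusted p = 0.008). Mcm2 and Mcm5 stood at 44.9 and 37.7 CPM and did not pass the test, and the smallest S ratios were those of Mcm4 (0.24), Slbp (0.50) and Mcm5 (0.73).

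In the G2 and M list of these progenitors, Cdc20 stood at 37.7 CPM, above every mesenchymal value, with a log2 ratio of 2.26 ± 0.57 (adjusted p = 0.011). The passenger complex gene Cdca8 stood at 315 CPM, against 70.2, 51.3 and 41.7 in mesenchymal cells, with 2.18 ± 0.37 (adjusted p = 0.00038). Aurka, the centrosome kinase, differed by 1.83 ± 0.56 (adjusted p = 0.042). Top2a stood at 1057 CPM and Mki67 at 252, with ratios of 1.36 ± 0.36 (adjusted p = 0.016) and 1.20 ± 0.30 (adjusted p = 0.012). Cdk1 at 71.9 CPM and Ccnb1 at 52.1 CPM did not pass, nor did the members with the smallest ratios, Birc5 (0.33), Anln (0.38) and Ccnb2 (0.61). Fewer members of both lists were called without the E14.5 library, without the E15.5 library and with DESeq2. With DESeq2, whose scaling and test both differ from those of edgeR, the median of all genes was -0.14 in place of -0.01. A smaller share of its calls over all genes was higher.

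Glial cells, gated on Schwann lineage genes such as Sox10, had a high G2 and M list with an S list near the mesenchymal level. The G2 and M list summed to 7643 (6922 to 8419) and 3409 (2975 to 3888) CPM at E14.5 and E15.5, and the S list to 818 (595 to 1098) and 537 (374 to 747) CPM. The 2 sums rest on 13 and 25 cells, and the cell with the most UMIs of the G2 and M list carried 30.4% and 25.2% of them. Of the tested G2 and M genes 12 of 20 were called higher and 0 lower, where 3.42% and 4.45% of all genes were, and all 20 ratios were above 0. Of 14 S genes 0 were called by edgeR, 0 by DESeq2 and 0 at an unadjusted p under 0.05. Of all 10609 genes tested by edgeR, 2064 were under that unadjusted p. The median ratio was 1.72 for G2 and M genes and -0.02 for S genes, beside -0.44 over all genes.

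Top2a stood at 1971 and 875 CPM in glial cells at E14.5 and E15.5, both above the mesenchymal values, and its log2 ratio was 1.37 ± 0.32 (adjusted p = 0.0051). Mki67 stood at 353 and 322 CPM, with 1.29 ± 0.30 (adjusted p = 0.0061). Cdc20 stood at 92.99 and 46.1 CPM and had the largest ratio, 2.62 ± 0.65 (adjusted p = 0.0094), followed by Ube2c with 2.50 ± 0.48 (adjusted p = 0.00086) and the spindle protein Nusap1 with 2.27 ± 0.32 (adjusted p = 1.7e-05). Cdk1, at 279 and 76.8 CPM, differed by 1.54 ± 0.46 (adjusted p = 0.037). The member with the smallest G2 and M ratio was the spindle motor Kif11 (0.81), which did not pass, and Ccnb1 at 92.99 and 30.7 CPM did not pass either. Among S genes Rrm1 (0.97), Uhrf1 (0.64) and Mcm5 (0.22) had the largest ratios and Cdca7 (-1.76), Mcm3 (-0.90) and Mcm4 (-0.76) the smallest. Pcna stood at 18.6 and 107 CPM and Mcm5 at 37.2 and 15.4. Mcm2 had 0 UMIs at E14.5, which allows up to 55.8 CPM, and stood at 30.7 CPM at E15.5.

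Without the E14.5 library 0 G2 and M genes were called in glial cells, without E15.5 6, and without E13.5 16. Leaving out E14.5 leaves 1 glial sum, with log2 ratios of 2.33 for Cdc20, 1.78 for Ube2c, 1.55 for Nusap1, 1.23 for Mki67, 0.70 for Top2a and -0.89 for Kif11. Classes taken from clusters gave 1 call, cells thinned to 1500 UMIs gave 2 and DESeq2 gave 17. With DESeq2, whose scaling and test both differ from those of edgeR, the median of all genes was -0.09 in place of -0.44. The share of calls over all genes that were higher was 63.0% in place of 43.5%.

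Myeloid cells, gated on macrophage genes such as Csf1r and C1qa, had 7 of 20 G2 and M genes and 1 of 14 S genes called higher and 0 lower, where 15.4% of all genes tested were called higher and 21.6% lower. The G2 and M list summed to 1615 (1254 to 2047), 2989 (2708 to 3291) and 2193 (2008 to 2392) CPM at the 3 stages and the S list to 1235 (922 to 1619), 778 (638 to 939) and 723 (618 to 840.0) CPM, with 17 cells at E13.5. Median ratios were 0.72 and 0.22, beside -0.33 over all genes. Ube2c stood at 94.97, 216 and 94.1 CPM, above the mesenchymal value of the same stage in each library, with 1.59 ± 0.38 (adjusted p = 0.0016). Cdca8 differed by 1.57 ± 0.32 (adjusted p = 0.00039) and Birc5, its partner, by 1.47 ± 0.33 (adjusted p = 0.00096). Mki67 stood at 261, 209 and 179.6 CPM, with 0.70 ± 0.25 (adjusted p = 0.028). Top2a stood at 379.9, 799 and 697 CPM and did not pass (0.46 ± 0.28 (adjusted p = 0.20)). Cdk1 at 47.5, 108 and 64.1 CPM, Cdc20 at 23.7, 28.8 and 21.4 CPM and Ccnb1 at 0, 43.2 and 8.55 CPM did not pass, where 0 UMIs at E13.5 allow up to 71.2 CPM. The smallest ratios were those of Anln (-0.39), Cenpf (-0.34) and Ccnb1 (-0.10).

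In myeloid cells 1 in 14 S genes called higher is below the share of all genes. This gene was Pcna, at 166, 166 and 94.1 CPM with a ratio of 0.89 ± 0.30 (adjusted p = 0.019). Rrm1 (0.85) and Mcm7 (0.64) came next, and Slbp (-0.35), Cdca7 (-0.09) and Mcm2 (-0.09) had the smallest ratios. Mcm2 and Mcm5 stood at 23.7, 7.202 and 21.4 and at 47.5, 36.01 and 25.7 CPM. Without the E14.5 library 1 G2 and M gene and 0 S genes were called, and without E15.5 2 and 1. With DESeq2, whose scaling and test both differ from those of edgeR, the median of all genes was -0.19 in place of -0.33.

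Epithelial cells, gated on keratins, Epcam and Cdh1, had 5 of 20 G2 and M genes and 1 of 14 S genes called higher and 0 lower, where 13% of all genes tested were called higher and 15% lower. The G2 and M list summed to 2682 (2489 to 2887), 1918 (1756 to 2090.3) and 1859.6 (1762 to 1961) CPM and the S list to 1188 (1061 to 1327), 576 (489.6 to 674) and 682 (624 to 745) CPM. Of the G2 and M ratios 19 of 20 were above 0, with a median of 0.48, and of the S ratios 11 of 14, with a median of 0.35, beside -0.09 over all genes. Cdc20 stood at 26.4, 36.95 and 30.3 CPM, above the mesenchymal value in each library, with a ratio of 1.77 ± 0.40 (adjusted p = 0.0012). Cdca8 followed with 1.12 ± 0.29 (adjusted p = 0.0039) and Ube2c with 1.01 ± 0.33 (adjusted p = 0.023). Top2a at 713, 528 and 529.6 CPM was also above the mesenchymal value in each library but did not pass (0.38 ± 0.26 (adjusted p = 0.31)), and Mki67 stood at 121, 159 and 111 CPM (0.08). Cdk1 at 75.4, 84.99 and 56.4 CPM and Ccnb1 at 41.5, 25.9 and 23.4 CPM did not pass, and the smallest ratios were those of Kif11 (-0.31), Mki67 and Anln (0.25).

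The share of 1 in 14 S genes is below that of all genes called higher, and the count of S genes was 0 under 11 of 12 alternatives. The gene called was Tyms, at 128, 70.2 and 48.1 CPM with a ratio of 0.72 ± 0.27 (adjusted p = 0.048). Mcm6 (0.61) and Rrm1 (0.52) came next, while Mcm2 (-0.43), Mcm4 (-0.36) and Slbp (-0.35) had ratios below 0. Pcna stood at 82.99, 55.4 and 83.9 CPM, Mcm2 at 22.6, 11.1 and 11 and Mcm5 at 41.5, 14.8 and 24.8. Without the E13.5 library, whose epithelial-gated cells lay mostly in the cluster led by pituitary and otic genes, 6 G2 and M genes and 0 S genes were called higher and 1 S gene lower. Without E14.5 2 and 0 were called higher, without E15.5 1 and 0, and with classes from clusters 0 and 0.

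In chondrogenic, osteogenic and endothelial cells no member passed the test in either direction, where 1.58%, 0.302% and 16% of all genes were called. DESeq2 called 0 higher in each as well. At an unadjusted p under 0.05 there were 1 S and 6 G2 and M genes in chondrogenic, 0 and 1 in osteogenic, and 0 and 0 in endothelial cells. Of all 10609 genes tested, 1030, 594 and 2877 were under that unadjusted p in these classes. Chondrogenic cells, gated on cartilage matrix genes, had 19 of 20 G2 and M ratios above 0, with a median of 0.41, and 5 of 14 S ratios, with a median of -0.13, beside -0.03 over all genes. Their largest G2 and M ratios were those of Cdc20 (1.39 ± 0.42 (adjusted p = 0.12)), Plk1 (1.22 ± 0.50 (adjusted p = 0.35)) and Hmmr (0.74 ± 0.30 (adjusted p = 0.35)), and the smallest those of Anln (-0.03), Mki67 (0.09) and Tpx2 (0.22). Among S genes Rrm1 (0.64), Tyms (0.40) and Mcm7 (0.27) were at the top and Cdca7 (-0.45), Slbp (-0.45) and Uhrf1 (-0.33) at the bottom.

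Chondrogenic Top2a stood at 437, 611 and 576 CPM in order of stage, Mki67 at 107, 189.7 and 90.3, and Cdk1 at 54.3, 78.1 and 133. Ccnb1 was at 20.9, 37.9 and 30.1 CPM and Cdc20 at 25.1, 29.01 and 17.2, above mesenchymal cells at every stage for Cdc20. Pcna was at 64.8, 75.9 and 55.9, Mcm2 at 33.4, 17.9 and 17.2 and Mcm5 at 14.6, 17.9 and 25.8 CPM. These values overlapped those of mesenchymal cells, apart from Cdc20.

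Osteogenic cells, gated on Runx2, Sp7 and bone matrix genes, had medians of -0.06 and 0.01 for the S and the G2 and M list, beside -0.09 over all genes. At E14.5 and E15.5 Top2a stood at 539 and 389 CPM, Mki67 at 151 and 131, Cdk1 at 43.1 and 32.7, Ccnb1 at 4.31 and 16.3 and Cdc20 at 21.6 and 8.16. Pcna stood at 38.8 and 51.7, Mcm2 at 30.2 and 19.05 and Mcm5 at 21.6 and 16.3 CPM. The largest ratios were those of Hmmr (0.78), Cdca8 (0.54) and Cdc20 (0.48) and of Mcm3 (0.50), Mcm2 (0.50) and Rrm1 (0.42). The smallest were those of Plk1 (-1.67), Bub1 (-0.94) and Ccnb1 (-0.75) and of Mcm4 (-0.80), Mcm7 (-0.58) and Pcna (-0.57).

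Endothelial cells, gated on genes such as Pecam1, Cdh5 and Kdr, had medians of -0.04 and -0.08, beside -0.20 over all genes. Top2a stood at 668 and 251 CPM at E14.5 and E15.5, a high value followed by one below every mesenchymal level. Mki67 stood at 138 and 81.7, Cdk1 at 84.5 and 59.9, Ccnb1 at 7.68 and 21.8 and Cdc20 at 23.04 and 5.45 CPM. Pcna was at 69.1 and 70.8 and Mcm2 at 23.04 and 10.9 CPM, while Mcm5 had 0 UMIs at E14.5, which allows up to 23.04 CPM, and stood at 16.3 CPM at E15.5. Ratios ran from -0.88 for Hmmr, -0.48 for Aurka and -0.31 for Cenpf to 0.41 for Cdc20, 0.42 for Cdca8 and 0.46 for Cdk1. In the S list they ran from -1.03 for Mcm5, -0.87 for Mcm4 and -0.55 for Slbp to 0.45 for Mcm7, 0.49 for Tyms and 0.80 for Uhrf1.

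Neurons as a class have left the cell cycle, but the neuronal gate also took in cells with neural progenitor markers, and its sums were not the lowest for every list: the endothelial G2 and M sum at E15.5, at 921 CPM, lay below every neuronal one. The neuronal S list summed to 506 (489 to 524), 360.2 (300.1 to 429) and 386 (339 to 438) CPM and the neuronal G2 and M list to 1061 (1035 to 1086), 1081 (974 to 1195) and 1228 (1143 to 1318) CPM. Of the tested members 4 S and 4 G2 and M genes were called lower and 0 higher, where 13.6% of all genes were called lower and 15.1% higher, and DESeq2 also called 4 and 4 lower and 0 higher. None was higher at an adjusted p under 0.05, and 12 of 14 S ratios and 17 of 20 G2 and M ratios were below 0, with medians of -0.64 and -0.40, beside 0.01 over all genes. The called S genes were Mcm3 (-1.30 ± 0.34 (adjusted p = 0.0042)), Mcm4 (-1.25), Gins2 (-1.22) and Cdca7 (-1.07), and the G2 and M genes were Anln (-1.13 ± 0.34 (adjusted p = 0.014)), Ccnb2 (-1.06), Cdk1 (-0.90) and Kif11 (-0.89). Top2a stood at 294, 392 and 394 CPM, Mki67 at 65.9, 82.9 and 93.7, Cdk1 at 22.6, 31.4 and 20.7, Ccnb1 at 17.8, 20.01 and 4.77 and Cdc20 at 9.85, 14.3 and 12.7. Pcna stood at 42.9, 42.9 and 34.9, Mcm2 at 12.4, 11.4 and 6.35 and Mcm5 at 12.9, 14.3 and 11.1 CPM. The largest ratios, none of which passed, were those of Cdc20 (0.52), Ube2c (0.50) and Cenpf (0.00), and of Mcm7 (0.12), Rrm1 (0.05) and Tyms (-0.38).

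At least 1 neural progenitor marker was found in 1016 of the 1831 neuronal-gated cells at E13.5. Without the E13.5 library 2 S and 1 G2 and M genes were called lower, without E14.5 1 and 0, and without E15.5 1 and 0.

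**Figure D2:**
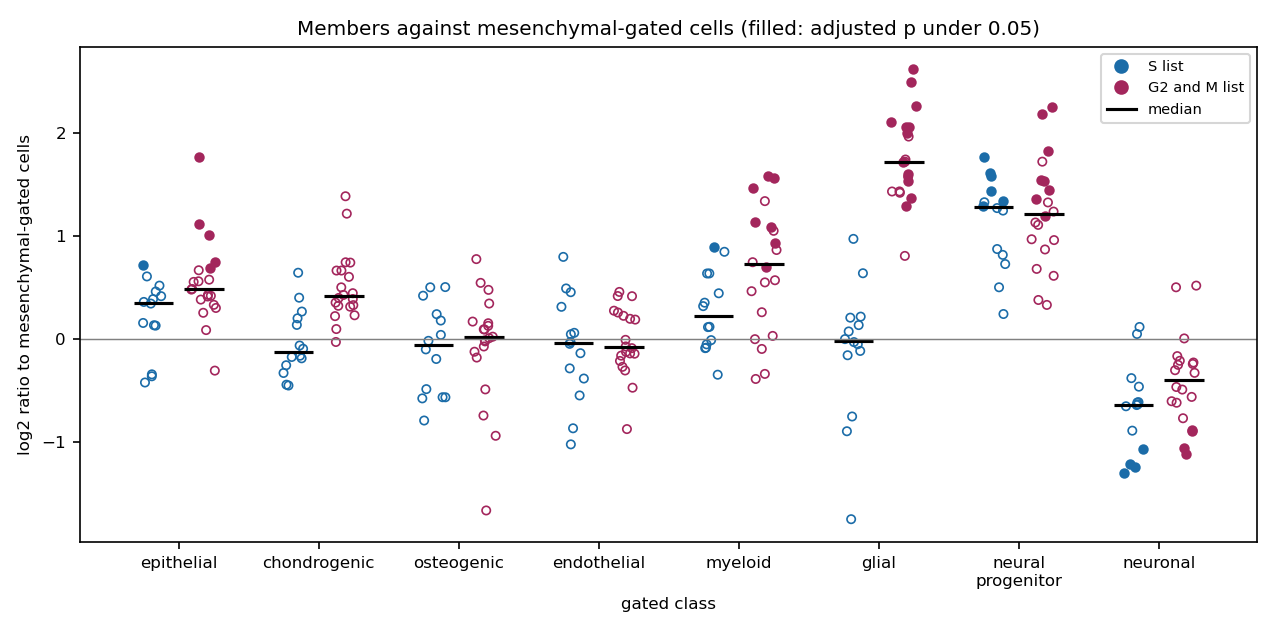
Log2 ratio of each tested member in a class to mesenchymal cells, 1 point per gene, with the S list at the left and the G2 and M list at the right of each class, filled points for an adjusted p under 0.05 and black bars for medians. Neural progenitor cells, with 1 sum, have medians of 1.28 and 1.22, and glial cells have medians of -0.02 and 1.72.

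There were 3 genes called higher in 4 classes, the most of any member over the 8 classes: Nusap1, Ube2c and Cdca8 in epithelial, myeloid, glial and neural progenitor cells. Cdc20 and Mki67 were called higher in 3. Mcm2, Mcm5, Mcm6, Slbp, Rrm1, Plk1, Tpx2 and Ccnb1 were called in none of the 8 classes described. These counts, and those of the lists that follow, include neural progenitor cells, whose calls rest on 1 sum. Every ratio is to the same mesenchymal sums, so calls of a gene in several classes are not independent. The share of all genes called in as many classes was not taken. Without the filter on low counts Cdc6 and Aurkb could be tested, and neither had an adjusted p under 0.05 in any of these classes.

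Other cell cycle genes were read from 4 further lists. In the list of CDK inhibitors and exit genes, 8 of 11 were tested. Cdkn1c, the inhibitor p57, was called lower than in mesenchymal cells in 6 classes, with log2 ratios of -1.62 in epithelial, -1.92 in endothelial, -3.12 in myeloid, -1.56 in glial, -2.36 in neural progenitor and -1.97 in neuronal cells. Cdkn1a, the inhibitor p21, was called higher in epithelial (3.71), myeloid (4.05) and neuronal cells (2.99). Cdkn1b, the inhibitor p27, was called higher in neural progenitor (1.18) and neuronal cells (0.76).

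Of the 14 G1 cyclins, kinases and restriction point genes, neuronal cells had 6 called lower, among them Ccnd3 (-1.66), Ccne1 (-1.54) and Cdk2 (-1.53), and Rb1 called higher (1.73). Neural progenitor cells had 5 called higher, led by E2f2 (3.56) and Ccnd1 (1.97), and Ccnd3 called lower (-1.66). Ccnd2, a D-type cyclin, was called lower in endothelial (-1.36), myeloid (-2.60), glial (-1.48) and neuronal cells (-1.46), while Ccnd1 was called higher in endothelial (2.05) and glial cells (2.38). Of 25 further G2 and M genes, 6 were called higher in neural progenitor, 5 in glial, 4 in myeloid and 3 in epithelial cells, with Prc1, which bundles midzone microtubules, among them in all 4 classes (1.69, 2.32, 0.84 and 0.93). Over all genes 3.36%, 3.42%, 15.4% and 13% were called higher in these classes, so the myeloid and epithelial counts are near the background. Of 17 further S genes tested, 6 were called higher in neural progenitor cells, 2 in epithelial, 2 in myeloid and 1 in glial cells, and 2 were called lower in neuronal cells, where 13.6% of all genes were called lower. The epithelial, myeloid and neuronal counts are again near the background.

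The balance of the 2 lists differed between classes. Mesenchymal cells had 2.28 (2.09 to 2.495), 2.19 (2.07 to 2.32) and 2.28 (2.18 to 2.39) UMIs of the G2 and M list per UMI of the S list at the 3 stages, with counting intervals. Neural progenitors at E13.5 had 2.01 (1.86 to 2.17), close to the mesenchymal value of that library. Glial cells had 9.34 (6.83 to 13.1) at E14.5 and 6.34 (4.43 to 9.34) at E15.5, and their intervals lay above those of every other class at those stages. Chondrogenic cells ranged from 2.41 to 3.51, epithelial cells from 2.26 to 3.33, and myeloid cells from 1.31 to 3.84. These are ratios of counts with no test between classes.

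**Figure D3:**
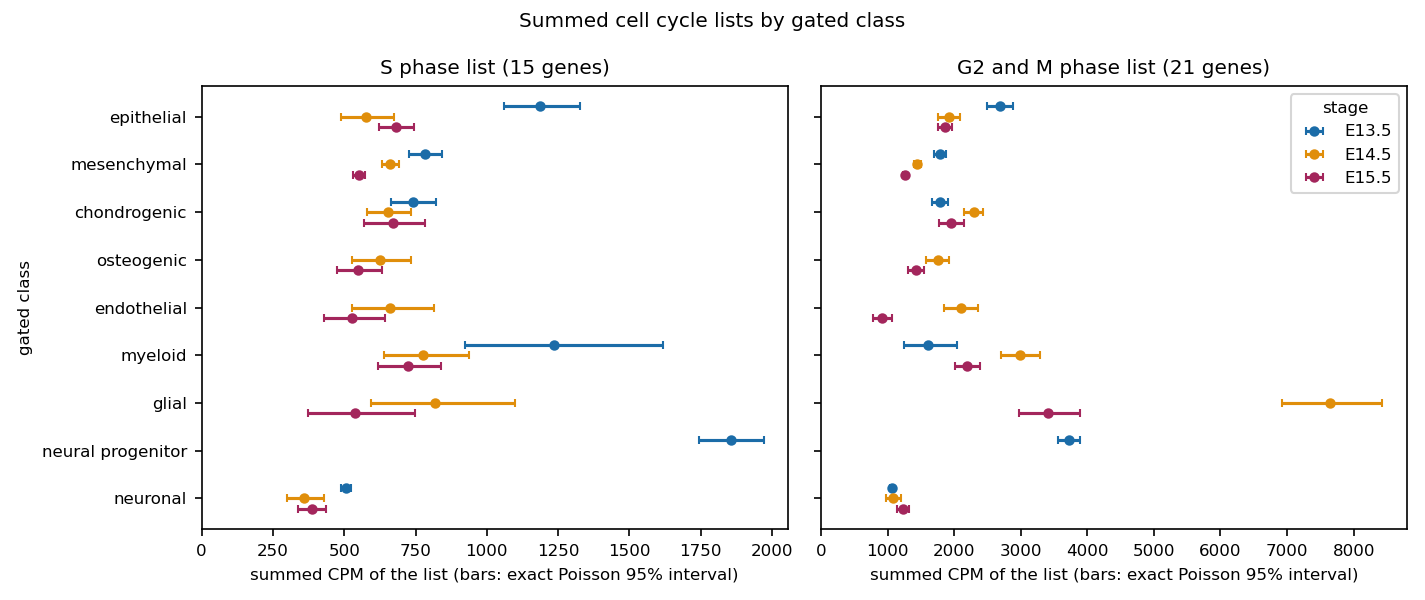
Summed CPM of the S list (left) and of the G2 and M list (right) in each gated class, 1 point per stage with its exact Poisson 95% interval. Glial cells reach 7643 CPM of the G2 and M list at E14.5, and the S list is highest in neural progenitor cells, at 1855 CPM.

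Shares of cells were taken after thinning every cell to the same total of 1500 UMIs, and cells with fewer UMIs were left out. Over all classes, with the cells that entered none, 4951 cells remained, of which 59.1% had 0 UMIs of the G2 and M list and 20.9% had 3 or more. The line at 3 UMIs is a cut on a range: 261 cells had exactly 2 and 180 exactly 3. Among mesenchymal cells the share with 3 or more was 19.9% (45 of 226 cells, 95% interval 14.9 to 25.7) at E13.5, 18.6% (120 of 644 cells, 95% interval 15.7 to 21.9) at E14.5 and 15.3% (160 of 1045 cells, 95% interval 13.2 to 17.6) at E15.5. Neural progenitors had 54.2% (84 of 155 cells, 95% interval 46.01 to 62.2). The glial share was 72.7% (8 of 11 cells, 95% interval 39.03 to 93.98) at E14.5 and 31.6% (6 of 19 cells, 95% interval 12.6 to 56.6) at E15.5. Myeloid cells had 30% (3 of 10 cells, 95% interval 6.67 to 65.2), 41.2% (14 of 34 cells, 95% interval 24.6 to 59.3) and 41.7% (20 of 48 cells, 95% interval 27.6 to 56.8).

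Epithelial cells had shares of 36.5% (23 of 63 cells, 95% interval 24.7 to 49.6), 32.8% (20 of 61 cells, 95% interval 21.3 to 46) and 27.6% (40 of 145 cells, 95% interval 20.5 to 35.6), each above the mesenchymal share of its library. With classes from clusters, which leave out most of the E13.5 cells gated as epithelial, the E13.5 share was 20% in epithelial and 20.9% in mesenchymal cells. Chondrogenic cells had 26.3% (25 of 95 cells, 95% interval 17.8 to 36.4), 31.9% (23 of 72 cells, 95% interval 21.4 to 43.99) and 21.6% (8 of 37 cells, 95% interval 9.83 to 38.2). Osteogenic cells had 22.9% (8 of 35 cells, 95% interval 10.4 to 40.1) and 24.1% (13 of 54 cells, 95% interval 13.49 to 37.6), and endothelial cells 26.7% (8 of 30 cells, 95% interval 12.3 to 45.9) and 18.4% (7 of 38 cells, 95% interval 7.74 to 34.3), whose intervals overlap those of mesenchymal cells. The chondrogenic intervals at every stage, and the epithelial ones at E13.5 and E14.5, also overlapped the mesenchymal ones. Intervals are exact (Clopper-Pearson) and cover counting error only. Without thinning, the shares were 21.5%, 21.2% and 16.8% in mesenchymal, 44.3%, 39.1% and 38.04% in epithelial, 29.03%, 34% and 32% in chondrogenic, 38.6% and 41.3% in osteogenic, 41.9% and 31.4% in endothelial, 29.4%, 42.9% and 31.4% in myeloid and 61.5% and 40% in glial cells and 57.9% in neural progenitors, in order of stage. Thinning left out 114, 415 and 603 mesenchymal, 7, 8 and 39 epithelial and 485, 35 and 51 neuronal cells at the 3 stages.

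Free RNA can give a cell UMIs of genes it does not express, so neuronal cells give a background. Neuronal-gated cells had 12.9% (173 of 1346 cells, 95% interval 11.1 to 14.8), 10.7% (9 of 84 cells, 95% interval 5.02 to 19.4) and 17.7% (23 of 130 cells, 95% interval 11.6 to 25.4) with 3 or more G2 and M UMIs. Neuronal-gated cells with no neural progenitor marker, a choice made after seeing the data, had 4.29% (21 of 489 cells, 95% interval 2.68 to 6.49), 4.84% (3 of 62 cells, 95% interval 1.01 to 13.496) and 11.1% (10 of 90 cells, 95% interval 5.46 to 19.5). Before thinning, the median cell had 2328, 2123 and 2442 UMIs in neuronal and 2142, 1854 and 1994 in mesenchymal cells. Neuronal-gated cells with no progenitor marker had medians of 1778, 1952.5 and 2010 UMIs, and those with such a marker 2896.5, 2822 and 4700.5. Markers were read before thinning, and the part of depth in these shares was not tested. The mesenchymal shares lay above the neuronal shares without progenitor markers at every stage, but at E15.5 the 2 intervals overlapped, and against all neuronal-gated cells the E15.5 mesenchymal share was lower, at the level of that background.

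For the S list, 2 or more UMIs were found in 63.2% (98 of 155 cells, 95% interval 55.1 to 70.8) of neural progenitors, and in 29.6% (67 of 226 cells, 95% interval 23.8 to 36.1), 24.2% (156 of 644 cells, 95% interval 20.96 to 27.7) and 18.8% (196 of 1045 cells, 95% interval 16.4 to 21.3) of mesenchymal cells. Glial cells had 9.09% (1 of 11 cells, 95% interval 0.2299 to 41.3) and 21.1% (4 of 19 cells, 95% interval 6.05 to 45.6), where the neuronal cells had 9.52% and 11.5%. At E14.5, 8 of 11 glial cells were thus past the G2 and M line and 1 of 11 past the S line, where mesenchymal cells had the larger share past the S line. The glial S share depends on thinning: without it 46.2% of cells were past the S line and 61.5% past the G2 and M line, and with classes from clusters the thinned shares were 23.3% and 63.3%. Epithelial, myeloid, chondrogenic and endothelial cells at E14.5 also had the larger share past the G2 and M line. Without thinning, the S shares of mesenchymal cells were 38.2%, 34.2% and 28.3%. After thinning, epithelial cells had 34.9%, 21.3% and 27.6% past the S line, and myeloid cells 30%, 23.5% and 25%.

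**Figure D4:**
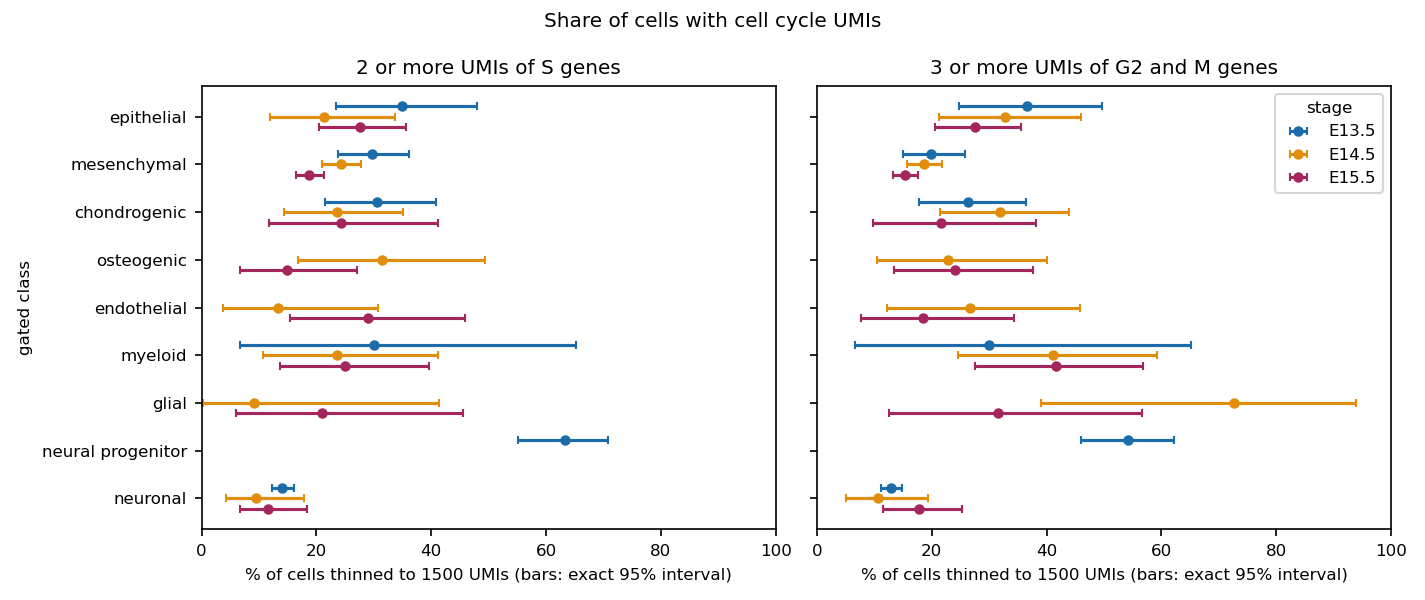
Share of gated cells with 2 or more UMIs of the S list (left) and 3 or more of the G2 and M list (right) after thinning to 1500 UMIs, 1 point per stage with exact 95% intervals. Mesenchymal cells stay between 15.3% and 19.9% in the right panel, and neural progenitors at E13.5 stand at 54.2%.

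Across the stages, mesenchymal cells had lower levels of both lists at E15.5 than at E13.5. The log2 ratio, with 1 CPM added, was -0.50 (-0.62 to -0.38) for the S list and -0.50 (-0.58 to -0.42) for the G2 and M list, with counting intervals. The mesenchymal-gated cells lay in different clusters at the 2 stages: 1 cluster held 193 of 340 at E13.5 and 53 of 1648 at E15.5, and another held 6 and 345. The part of this makeup in the ratios was not tested. All 15 S genes and 20 of 21 G2 and M genes had ratios below 0, where 54.8% of the 7457 genes with at least 20 CPM did, and the medians were -0.43 and -0.58, beside -0.07. The interval lay below 0 for 5 S genes and 12 G2 and M genes. The share of all genes with such an interval was not taken, so these counts have no background. Ube2c stood at 84.6, 40.9 and 29.5 CPM and had the lowest ratio, -1.49 (-1.93 to -1.09), followed by Birc5 with -1.06 (-1.47 to -0.67) and Ccnb2 with -1.03 (-1.46 to -0.62). Rrm2 stood at 60.1, 33.6 and 24.8 CPM, with -1.25 (-1.76 to -0.79), Mcm3 at -1.19 (-1.74 to -0.70) and Mcm2 at -1.02 (-1.76 to -0.34). Mki67 (-0.08 (-0.38 to 0.23)), Anln (-0.10 (-0.65 to 0.47)), Mcm6 (-0.06 (-0.57 to 0.47)), Slbp (-0.08 (-0.45 to 0.30)) and Gins2 (-0.11 (-0.79 to 0.62)) stayed near 0, and Cdc20, with 5 and 39 UMIs, had 0.53 (-0.74 to 2.31). With 1 library per stage, stage and library cannot be told apart.

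In epithelial cells, E15.5 against E13.5 gave log2 ratios of -0.80 (-1.01 to -0.59) for the S list and -0.53 (-0.66 to -0.40) for the G2 and M list, the difference lying between E13.5 and E14.5, since E15.5 against E14.5 gave 0.24 (-0.02 to 0.51) and -0.04 (-0.19 to 0.10). Mcm4 stood at 158, 29.6 and 35.8 CPM, with -2.12 (-2.91 to -1.41), Tyms at -1.40 (-2.14 to -0.69) and Rrm2 at -1.36 (-2.34 to -0.43). Ube2c (-1.39 (-1.99 to -0.81)), Bub1 (-1.28 (-2.28 to -0.34)) and Tpx2 (-1.13 (-1.80 to -0.48)) were lowest in the G2 and M list, and Aurka (1.14 (-0.56 to 3.61)), Plk1 (0.62 (-1.20 to 3.11)) and Cdc20 (0.19 (-1.08 to 1.67)) highest, on 3, 3 and 7 UMIs at E13.5. In the S list Pcna (0.02 (-0.71 to 0.79)), Cdc6 (-0.04 (-2.10 to 2.51)) and Uhrf1 (-0.11 (-1.08 to 0.94)) were highest. With epithelial cells taken from clusters, which leave out the cells of the unnamed cluster, the G2 and M ratio was -0.0795 and that of Bub1 0.64.

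In chondrogenic cells the same stages gave -0.14 (-0.42 to 0.13) and 0.13 (-0.04 to 0.30), and their G2 and M level was highest at E14.5. The gated cells differed between the stages, since 62 of 124 lay in mesenchymal clusters at E13.5 and 14 of 50 at E15.5. Cdk1 (1.28 (0.49 to 2.10)), Aurka (0.98 (-0.86 to 2.94)) and Mcm5 (0.78 (-1.03 to 2.62)) were among the highest, with Mcm7 (0.40 (-0.48 to 1.27)) and Cdc6 (0.34 (-1.60 to 2.16)), and Aurkb rested on 2 UMIs at each stage. Mcm3 (-1.69 (-4.16 to -0.02)), Mcm2 (-0.92 (-3.00 to 0.67)), Cdca7 (-0.84 (-1.97 to 0.13)), Plk1 (-1.12 (-3.62 to 0.66)), Cdca8 (-1.10 (-2.21 to -0.15)) and Bub1 (-0.83 (-2.30 to 0.39)) were lowest. A single cell carried 29.7% of the G2 and M UMIs at E15.5, and with classes from clusters the list's ratio was -0.73 and that of Cdk1 -0.85. After thinning the ratio of Cdk1 was 0.36.

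Myeloid cells had -0.77 (-1.23 to -0.30) for the S list and 0.44 (0.07 to 0.83) for the G2 and M list, opposite in sign, with 68 G2 and M UMIs at E13.5. With classes from clusters the G2 and M ratio was 0.0328. Tpx2, Aurkb and Anln had 0 UMIs at E13.5, where 0 allows up to 71.2 CPM, and stood at 89.8, 25.7 and 21.4 CPM at E15.5, so only Tpx2 was above that limit. Rrm1 (-1.99 (-3.46 to -0.50)), Rrm2 (-1.63 (-3.64 to 0.55)) and Uhrf1 (-1.42 (-4.28 to 1.99)) were lowest in the S list and Mcm3 (0.96 (-1.80 to 6.41)), Slbp (0.26 (-1.49 to 2.66)) and Mcm6 (0.22 (-1.92 to 3.42)) highest. Aurka (-0.65 (-3.06 to 2.64)), Mki67 (-0.54 (-1.52 to 0.57)) and Cenpf (-0.36 (-1.67 to 1.21)) were lowest in the G2 and M list.

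For classes without an E13.5 sum the ratio is that of E15.5 to E14.5. Glial cells had -1.16 (-1.41 to -0.93) for the G2 and M list, with all 21 ratios below 0, where 50% of genes with at least 20 CPM were, and -0.61 (-1.29 to 0.07) for the S list, which was 0.35 after thinning. Ccnb2 (-0.11 (-1.65 to 1.47)), Mki67 (-0.13 (-1.10 to 0.84)) and Hmmr (-0.43 (-1.90 to 1.02)) were closest to 0, and Kif11 had -2.25 (-4.74 to -0.39). Pcna, on 1 and 7 UMIs at E14.5 and E15.5, had 2.47 (-0.43 to 8.02), and Mcm6, on 5 and 1, had -2.52 (-8.16 to 0.56). Plk1 had 5 and 0 UMIs, Aurkb 2 and 0, Rrm2 4 and 0, Cdca7 2 and 0, and Mcm2 and Cdc6 0 and 2, and since 0 allows up to 55.8 CPM at E14.5 and 46.1 at E15.5, no ratio is given for these. Plk1 and Aurkb are counted among the 21, and the sign is not settled for Aurkb, which stood at 37.2 CPM at E14.5.

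Endothelial cells had -1.19 (-1.47 to -0.91) for the G2 and M list, with 19 of 21 ratios below 0, where 50.2% of genes were, and -0.32 (-0.76 to 0.11) for the S list. Cdca8 (-2.04 (-3.89 to -0.55)) and Hmmr (-2.61 (-8.38 to 0.34)) were lowest in the G2 and M list with Aurkb, which had 3 and 0 UMIs, and Ccnb1 (1.39 (-1.83 to 7.13)), Bub1 (0.79 (-1.78 to 4.22)) and Ccna2 (-0.08 (-2.64 to 2.69)) highest. Rrm2 had 9 and 0 UMIs and Mcm5 0 and 3. Rrm1 (-1.66 (-4.30 to 0.41)) and Mcm6 (-1.06 (-2.85 to 0.57)) were low in the S list, and Gins2 (0.48 (-2.30 to 3.97)) and Mcm7 (0.41 (-0.92 to 1.86)) high. The list's ratio was -0.13 after thinning the cells and -0.60 when no doublets were left out.

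Osteogenic cells had -0.19 (-0.50 to 0.13) and -0.30 (-0.49 to -0.11), the latter above 0 with classes from clusters (0.10) and after thinning (0.0644). Ccnb2 (-1.42 (-2.67 to -0.31)), Cdc20 (-1.30 (-4.09 to 0.96)), Bub1 (-0.99 (-3.85 to 1.48)), Mcm6 (-0.91 (-2.02 to 0.14)), Mcm4 (-0.90 (-2.30 to 0.41)) and Mcm3 (-0.88 (-2.21 to 0.37)) were lowest. Cdc6 (2.78 (0.30 to 8.45)), Uhrf1 (0.69 (-0.87 to 2.55)), Rrm1 (0.45 (-0.62 to 1.64)), Ccnb1 (1.71 (-1.12 to 7.44)), Cenpf (0.58 (-0.06 to 1.26)) and Anln (0.16 (-1.10 to 1.53)) were highest, with 1 UMI of Cdc6 and of Ccnb1 at E14.5. In neuronal cells E15.5 against E13.5 gave -0.39 (-0.59 to -0.20) and 0.21 (0.10 to 0.32), the latter -0.19 with classes from clusters. The neuronal-gated cells also lay in different clusters, since the 2 with the most cells at E13.5 held 707 and 609 of 1831 there and 10 each of 181 at E15.5, while 1 cluster held 35 and 135. Their lowest members were Cdca7 (-1.67 (-2.75 to -0.87)), Rrm2 (-1.46 (-2.67 to -0.58)), Mcm2 (-0.86 (-2.88 to 0.45)), Ccnb1 (-1.70 (-4.20 to -0.32)), Bub1 (-0.81 (-2.10 to 0.16)) and Cdca8 (-0.58 (-1.24 to -0.00)), and their highest Cenpe (0.78 (0.37 to 1.19)), Mki67 (0.50 (0.09 to 0.90)), Cenpf (0.45 (0.14 to 0.75)), Rrm1 (0.48 (-0.07 to 1.01)), Uhrf1 (0.22 (-0.68 to 1.04)) and Slbp (0.15 (-0.36 to 0.63)).

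Whether the members occur in the same cells was read in mesenchymal cells thinned to 1500 UMIs. Each gene was looked up in cells with 3 or more UMIs of the other G2 and M genes and in cells with 0 UMIs of all other members. Top2a was found in 81.9% against 4.62% of these cells, Cenpf in 50.97% against 1.09%, Mki67 in 49.2% against 1.36% and Nusap1 in 39.1% against 1.23%. Every G2 and M gene had the higher share in the first group at all 3 stages. Aurka, Aurkb and Ccnb1 were found in 7.72%, 7.69% and 10.2% of the first group and in 0 of 723 cells of the second, which allows a share of cells with a UMI at this depth of up to 0.415% and sets no limit on cells expressing these genes.

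The S genes were found in 1.85% to 14.8% of the first group. Uhrf1 was found in 13.8% against 0.687%, Rrm2 in 14.2% against 1.36%, Tyms in 13.54% against 1.63% and Pcna in 14.8% against 5.98% of the cells. Among the helicase subunits, Mcm2 was found in 1.85% against 1.63%, Mcm4 in 8.92% against 5.12%, Mcm5 in 5.23% against 1.499% and Mcm6 in 8% against 3.98%. Slbp was found in 14.46% against 8.48%. Mcm2 and Mcm7 had the higher share in the first group at 2 of 3 stages and the other 13 S genes at all 3.

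**Figure D5:**
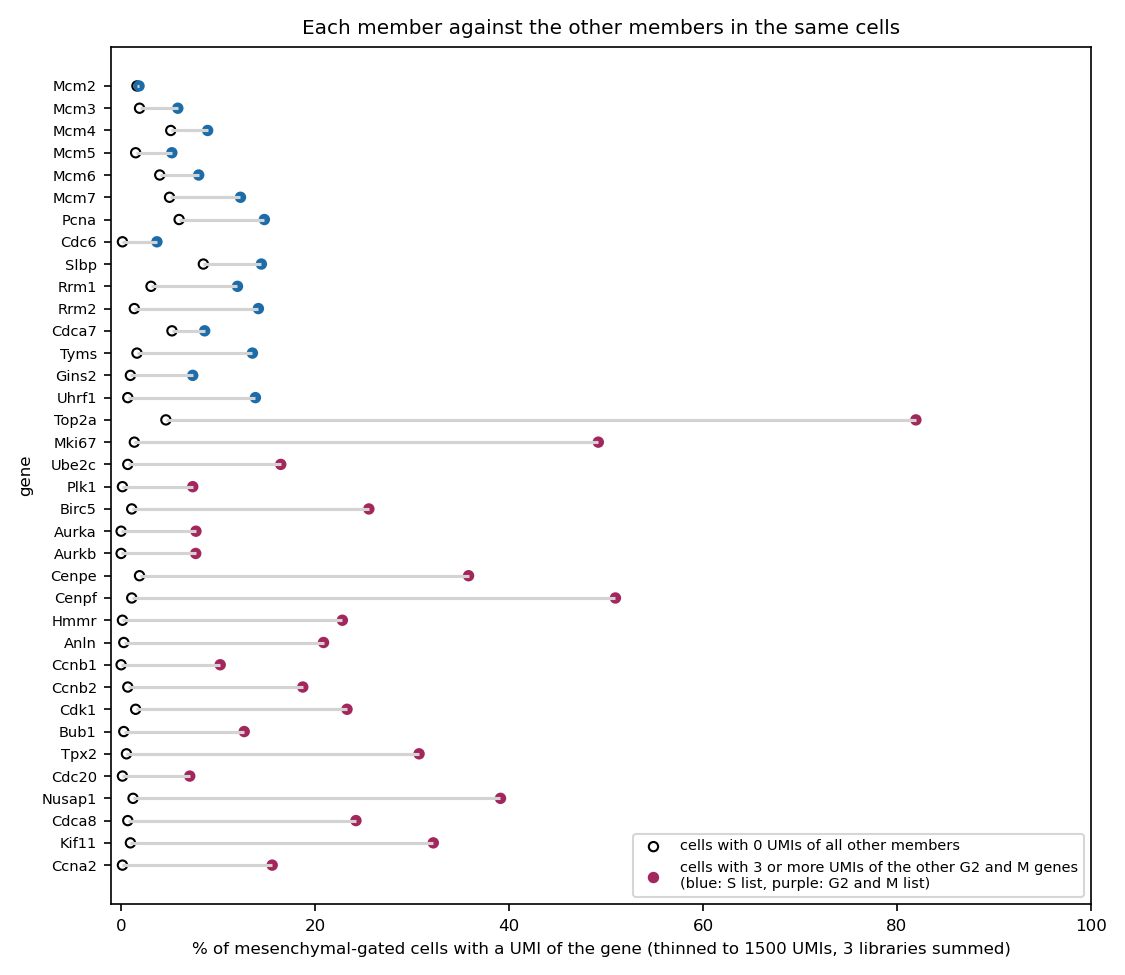
Share of mesenchymal cells with a UMI of each member, in cells with 3 or more UMIs of the other G2 and M genes (filled points) and in cells with 0 UMIs of all other members (open points), over the 3 libraries summed. Top2a spans from 4.62% to 81.9%, while Mcm2 has 1.63% and 1.85%.

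Genes outside the 36 were tested for going with them in mesenchymal cells. Cells with 3 or more UMIs of the G2 and M list (45, 120 and 160 at the 3 stages) were compared with cells with 0 UMIs of both lists (68, 215 and 440), each summed per library after thinning. The 36 members chose the cells and were not tested. Of 5190 other genes, 294 were called higher and 204 lower by edgeR, which is 5.66% and 3.93%, or 9.6% in all, and DESeq2 called 148 and 14. Before thinning the first group had more UMIs per cell, with medians of 3620.0, 2936 and 3394 against 2536, 2510.0 and 2788, and the part of depth in the result was not tested. Of the first group 44.4%, 41.7% and 42.5% also had 2 or more S UMIs.

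Of the 25 genes of the further G2 and M list 20 passed the filter on low counts, and each of these was called higher, where 5.66% of genes were. A gene near 0 in the second group could pass that filter only through the first, so the count is a description and not support. Prc1 had 50, 133 and 151 UMIs in the first group and 4, 2 and 8 in the second at the 3 stages, a log2 ratio of 5.59 ± 0.29 (adjusted p = 1.7e-80). Kif23, a motor of cytokinesis, Nuf2, a kinetochore protein, and Iqgap3 had 71, 40 and 34 UMIs against 0, and were at least 52.6-fold, 29.7-fold and 25.2-fold higher, taking 3 counts over the group as the limit of 0. With the counting error of both groups, the lower 95% limits of these ratios were 41.7, 23.03 and 19.4. The kinesin Kif15 had 105 against 1 UMI, a ratio of 234 (95% interval 41.02 to 9313), and the kinesin Kif4 had 88 against 3, a ratio of 65.3 (21.6 to 322). Depdc1a, Esco2, Cep55, Shcbp1, Efcab11, Sgo1, Aspm and Kifc1 had 30 to 85 UMIs against 1 to 3. The histone gene Hist1h2ap had 149 UMIs against 7, a log2 ratio of 5.50 ± 0.37, and histone genes of this cluster have near-identical copies among which counting can split UMIs.

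Of the 20 further S genes 10 were tested, under the same limit, and 8 were called higher, among them Pole (3.24) and Lig1 (2.55). Of the G1 list 3 of 9 were called higher, namely the E cyclins Ccne2 (2.66) and Ccne1 (2.26) and E2f3 (0.85), while the D cyclins Ccnd1 (0.09), Ccnd2 (-0.39) and Ccnd3 (-0.25) did not pass. Of the inhibitors Cdkn1b (0.16), Cdkn1c (-0.17) and Btg1 (-0.24) none was called by edgeR. Among the mesenchymal markers Col1a1 was called lower (-0.46, adjusted p = 0.043), and Prrx1, Twist1, Pdgfra, Col1a2, Col3a1, Col6a1, Postn and Dcn were not called.

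The lowest ratios among called genes were those of the embryonic globins Hbb-y (-2.99 ± 0.29) and Hba-x (-2.61 ± 0.35). Hbb-y had 23 UMIs against 655 at E13.5, 16 against 23 at E14.5 and 0 against 0 at E15.5, and without the E13.5 library its log2 ratio was 0.33. Its call was also lost with DESeq2 (-0.92, adjusted p = 0.9998) and with no library term (-4.23, adjusted p = 0.46). Car10 (-2.44 ± 0.63), Rufy2 (-2.26 ± 0.48), Gabrg3 (-2.19 ± 0.54), Epha6 (-2.14 ± 0.42), Rftn1 (-1.97 ± 0.58), Vapb (-1.90 ± 0.45), Adarb2 (-1.80 ± 0.38) and Odr4 (-1.76 ± 0.43) followed, each on 5 to 16 UMIs in the cells with G2 and M UMIs. The counts of lower genes depend on the test and on the libraries: without E13.5, E14.5 or E15.5 there were 118, 46 and 85, and of higher genes 292, 198 and 162.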

How the data were processed

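Single-cell libraries of palatal shelf tissue, 1 per stage, were deposited by the authors as raw UMI counts per gene and barcode, and Cell Ranger 6.1.2 and mm10 are named in the submitters' processing notes. The gene annotation and the counting options are not given in the sources used here. The cells were fixed in methanol before capture, per the labels' protocols. Labels put the tissue of 3 embryos in each library, which cannot be taken apart. With the library as a block, p-values measure the spread left after the library and the class, or the group of cells, are fitted. That spread comes from 3 libraries that also differ in stage. In the class fit it is shared over the classes, and the 1 sum of neural progenitors adds nothing to it.

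Cells with at least 500 genes and at most 20% mitochondrial UMIs were kept (scanpy 1.11.5). The doublet caller scrublet marked 5 cells, 0.0617%, and so did not work as a caller. Instead, the cells with the highest scores were left out at 0.8% per 1000 cells, 109, 25 and 56 in order of stage. The cells kept numbered 3583, 1750 and 2584.

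Cells were gated into 12 classes by 10 markers each (9 found for erythroid cells), with mesenchymal, chondrogenic and osteogenic cells treated as a lineage. Counts were summed per class and library where there were at least 10 cells, and tested with edgeR 4.0.16 (quasi-likelihood, TMM, filterByExpr with a minimum count of 10, the library as a block, R 4.3.3), with adjusted p under 0.05 as the threshold. DESeq2 1.42.0 was an alternative, and others are listed in the closing section. The class fit was tested on simulated counts of epithelial against mesenchymal cells, where it recovered a minority of the smaller changes put in, so a member that did not pass may still differ. The exact Clopper-Pearson and Poisson intervals are at 95%, and 0 was read as up to 3 counts. UMI counts make PCR copies of a molecule count once.

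The members, the markers and the further lists were chosen with earlier results of these data known. For each class and list, the 3 largest and 3 smallest log2 ratios are named, together with 8 set members (Mcm2, Mcm5, Pcna, Top2a, Mki67, Ccnb1, Cdk1 and Cdc20). Outside the 36 genes, the 15 largest and 10 smallest ratios among called genes with at least 50 CPM are named. Gene positions are from GENCODE M21 (GRCm38), and promoter sequences are from RefSeq (GRCm38.p6).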

Additional observations from a re-analysis of the deposited data

Results flagged for a closer look

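Cells that entered no gated class are in no comparison between gated classes, though classes from clusters hold many of them. They carried cell cycle RNA. After thinning to 1500 UMIs, 37.8%, 31.0% and 24.2% of the ungated cells, in order of stage, had 3 or more UMIs of the G2 and M list. Thinning left out 636 of 972, 142 of 226 and 182 of 277 of these cells, so the shares describe the deeper ones, and without thinning they were 33.2%, 27.4% and 20.6%. The shares of the neuronal-gated cells of the same libraries, which served as the background, were 12.9%, 10.7% and 17.7%. At E15.5 the 95% interval of the ungated cells (16.01 to 34.1) overlapped that of the neuronal cells (11.6 to 25.4).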

How the results depend on the processing

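Classes were compared within libraries, with the library as a block, and the fit with no library term is an alternative. Across stages, no paired analysis was possible because each stage has 1 library and no replicate numbers pair the libraries. The counts of members called higher in chondrogenic, osteogenic and endothelial cells, and of S genes in glial cells, were 0 under every alternative run. With DESeq2, S and G2 and M genes called higher numbered 0 and 3 in epithelial and 3 and 4 in neural progenitor cells. With at least 1000 genes per cell, epithelial S calls were 0 and neural progenitor G2 and M calls 4. With cells thinned to 1500 UMIs, epithelial calls were 0 and 1, myeloid G2 and M calls 4, glial 2, neural progenitor 3 and 5, and neuronal cells had 2 S genes lower, 1 G2 and M gene higher and 0 lower. With classes from clusters, epithelial calls were 0 and 0, myeloid S calls 2, glial G2 and M calls 1, and neuronal S genes lower 7. With a gate at 2 markers, epithelial calls were 0 and 3, myeloid S calls 3 and neural progenitor G2 and M calls 3. With a gate at 4 markers, epithelial S calls were 0, neural progenitor calls 2 and 3, and neuronal G2 and M genes lower 2. With no filter on low counts, calls were 0 and 3 in epithelial, 0 and 4 in myeloid and 3 and 5 in neural progenitor cells. With no library term, they were 0 and 1 in epithelial cells and 3 G2 and M genes in myeloid cells, and neuronal cells had 2 S and 1 G2 and M genes lower.

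Leaving out 1 library gave ranges of 0 to 0 for epithelial S genes higher, 0 to 1 for S genes lower and 1 to 6 for G2 and M genes. The ranges were 0 to 1 and 1 to 9 in myeloid cells, 0 to 16 for G2 and M genes in glial cells, 2 to 3 and 2 to 2 in neural progenitors, and 1 to 2 S and 0 to 1 G2 and M genes lower in neuronal cells. For cycling against other mesenchymal cells they were 162 to 292 genes higher and 46 to 118 lower. That comparison gave 148 higher and 14 lower with DESeq2, 194 and 55 with a gate at 2 markers, 126 and 4 with no library term, and 100 lower with a gate at 4 markers. The log2 ratio of Hbb-y ranged from -4.23 to 0.33, the latter without the E13.5 library.

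Stage log2 ratios after thinning were -0.15 for chondrogenic G2 and M, 0.14 and -0.13 for endothelial S and G2 and M, -0.40 for epithelial S, 0.35 for glial S, 0.55 for neuronal G2 and M and 0.0644 for osteogenic G2 and M. With classes from clusters they were -0.50 and -0.73 for chondrogenic S and G2 and M, with Cdk1 at -0.85, -0.0795 for epithelial G2 and M, with Bub1 at 0.64, -0.61 for mesenchymal and 0.0328 for myeloid G2 and M, -0.80 and -0.19 for neuronal S and G2 and M, and 0.10 for osteogenic G2 and M. With a gate at 2 markers the G2 and M ratios were -0.26 in chondrogenic and -0.40 in mesenchymal cells. With a gate at 4 markers they were -0.56 and -0.15 for chondrogenic S and G2 and M, -1.52 for endothelial G2 and M, -1.15 for epithelial S, and -0.64 and -0.53 for osteogenic S and G2 and M. With no doublets left out the endothelial G2 and M ratio was -0.60.

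Shares with 3 or more G2 and M UMIs from clusters were 20.0% for epithelial and 17.1% for chondrogenic cells at E13.5, 5.56% for chondrogenic cells at E15.5 and 63.3% for neural progenitors. Without thinning they were 38.0% for epithelial and 41.3% for osteogenic cells at E15.5 and 16.9% for neuronal cells at E13.5. Thinned to 1000 UMIs they were 19.8%, 11.7% and 26.8% for epithelial, mesenchymal and myeloid cells at E15.5, 15.4% for mesenchymal cells at E14.5, and 43.7% and 7.97% for neural progenitor and neuronal cells at E13.5. The causes were not tested. Among 1120 values of members under alternatives, 74 changed sign where neither value was called. Sums of under 50 glial cells, and members with fewer than 10 UMIs in a class, limit what depth can show.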

Other observations

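Ungated cells had sums of the G2 and M list of 2508 CPM at the first stage, then 2198 and 1343, and of the S list of 1061, 699 and 530.2 CPM. Of the ungated cells at E13.5, 396 lay in neuronal clusters, 240 in mesenchymal clusters and 214 in neural progenitor clusters. Neuronal-gated cells with at least 1 neural progenitor marker had 3 or more G2 and M UMIs in 17.7%, 27.3% and 32.5% of cells at the 3 stages, against 4.29%, 4.84% and 11.1% of those with no such marker. The cells with a marker had more UMIs before thinning, with medians of 2896.5, 2822 and 4700.5 against 1778, 1952.5 and 2010.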
